A study of Mus musculus with 8 samples.

Results

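A set of 9 genes that mark the endothelial cells of brain vessels was followed in the aging mouse brain: Cldn5, Pecam1, Flt1, Slco1a4, Slc2a1, Ly6c1, Itm2a, Bsg and Tek. They were chosen by symbol as blood-brain barrier and endothelial markers, and all 9 members were matched by Ensembl identifier among the 22430 genes of the long-read count table. The libraries came from 8 male mice of the inbred strain C57Bl/6JRj with no treatment named in the labels, of which 4 were young adults (6 months, 6m) and 4 were aged (24 months, 24m). A whole brain hemisphere of each mouse gave 1 library, sequenced as RNA molecules through nanopores (Oxford Nanopore Technologies, ONT), so each library is a mixture of all brain cell types and each replicate is a separate animal.

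Endothelial cells line the vessels of the brain and, joined by tight junctions, form the blood-brain barrier, which keeps blood solutes out of the tissue and carries nutrients across by dedicated transporters. Claudin-5 (Cldn5) is the main sealing protein of these junctions. GLUT1 (Slc2a1) brings in glucose, and Oatp1a4 (Slco1a4) moves organic anions. PECAM-1 (Pecam1) is an adhesion molecule at endothelial contacts, while VEGFR1 (Flt1) and TIE2 (Tek) are receptors for vascular growth factors and angiopoietins. Ly6c1 encodes a GPI-anchored surface protein of endothelial cells and of some leukocytes. Itm2a encodes an integral membrane protein, and basigin (Bsg, also called CD147) is the chaperone of monocarboxylate transporters. Bsg is a marker of brain endothelium but is also made by neurons, glia and red cell precursors, so its reads in a whole hemisphere are not those of vessels alone.

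Read against age, the estimates of the tested members ran from lower to close to their 6m levels. Whether their age changes differ from one another was not decided. No ratio between members passed after adjustment, and with 4 libraries of each age a single pair could not have passed. Bsg and Ly6c1 were lower at 24m, at 0.742 and 0.670 times their 6m levels, with no overlap between the 4 libraries of either age, a separation that 21.1% of all tested genes showed. Slc2a1 and Itm2a were close to their 6m levels, and Cldn5 was lower on average but with libraries of both ages intermixed. The other 4 members, Pecam1, Slco1a4, Flt1 and Tek, had between 0 and 6 reads per library, under the minimum for the fitted comparison. A gene was tested where its mean count over the 8 libraries was over 5, and 5 of the 9 members passed this minimum.

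Ly6c1 needs its sequence shown before its counts, because a neighbouring gene is almost the same. Ly6c2 lies on the same strand of chromosome 15, and over the 393 coding bases before the stop codon the canonical transcripts of Ly6c1 and Ly6c2 differed at 9 positions (97.7% identity). The last of their 3 coding exons is printed from the mouse genome (GRCm39, minus strand, 5′ to 3′), at chr15:74917254-74917459 for Ly6c1 and chr15:74980395-74980600 for Ly6c2. Capitals mark the 3 of 206 bases at which the pair differs.
Ly6c1: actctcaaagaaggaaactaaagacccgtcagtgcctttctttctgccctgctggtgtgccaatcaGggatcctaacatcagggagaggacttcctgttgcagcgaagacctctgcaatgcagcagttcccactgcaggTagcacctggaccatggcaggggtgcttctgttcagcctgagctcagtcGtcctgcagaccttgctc
Ly6c2: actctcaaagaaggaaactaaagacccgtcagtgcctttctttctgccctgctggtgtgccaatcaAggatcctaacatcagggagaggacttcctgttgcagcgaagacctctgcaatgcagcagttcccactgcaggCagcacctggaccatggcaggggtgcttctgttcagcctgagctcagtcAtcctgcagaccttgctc
A noisy long read over such a stretch can be placed on either gene, and how reads with several placements were counted is not given in the sources used here. The transcripts of Ly6a, Ly6a2 and Ly6i also matched that of Ly6c1, at identities of 86.1% to 88.4%. Slco1a4 has such relatives as well, with 85.1% to 89.1% identity to Slco1a1, Slco1a5, Slco1a6, Slco1a7 and Slco1a8. No relative of this kind was found for the other 7 members.

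The members lie on 8 chromosomes of GRCm39. Bsg is at chr10:79540143-79547821 and has a canonical transcript of 1809 bases in 8 exons. Ly6c1 is at chr15:74915847-74920686, with 1088 bases. Cldn5, a gene of 1 exon, is at chr16:18595597-18597012. Slc2a1 is at chr4:118965908-118996365 with 4445 bases, and Itm2a at chrX:106418945-106447419 with 1756 bases. Pecam1 is at chr11:106543689-106641454, Slco1a4 at chr6:141751165-141802036, Flt1 at chr5:147498414-147662826 and Tek at chr4:94627291-94763224. Only Slc2a1 shares exon bases with another annotated gene, 249 bases with the long non-coding RNA Gm12868 on the opposite strand.

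Library totals ranged from 573152 to 843706 reads on genes at 6m and from 660398 to 1255424 at 24m. Their means were 768576 and 890592, and a difference between ages was not detected (exact permutation test, two-sided, p = 0.543). Levels are given as counts per 1000000 reads on genes (CPM), with library sizes scaled by TMM, a scaling on the bulk of genes, for which 3 reads, taken as the limit of detection, were worth 2.30 to 5.42 CPM. Of the 9375 tested genes, 1359 (14.5%) passed both thresholds, namely an adjusted p no higher than 0.05 and a log2FC of 0.58 or more in size, and these are called changed in what follows. They comprised 968 higher and 391 lower genes at 24m, against 1218 and 223 with library sizes alone and 701 and 484 with limma-voom after quantile normalization. With library sizes alone the median log2FC of all tested genes moved from -0.0034 to 0.10, so that log2FC values under that scaling read about 0.10 higher. The aged replicate 1 stood apart on the second principal component (38.4, against -17.5 to 7.48 in the other 7 libraries).

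Bsg was at 1035, 973, 1001 and 985 CPM in the 6m libraries and at 826, 748, 673 and 720 CPM in the 24m libraries. Every 24m library was below every 6m library. The mean fell from 998 ± 27.1 to 742 ± 64.2 CPM (SD, n = 4 mice each), and the log2FC was -0.43 (SE 0.086, 95% interval -0.61 to -0.25; edgeR quasi-likelihood test, adjusted p = 0.000945). The adjusted p passed its threshold and the fold did not, so Bsg is not among the changed genes.

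Ly6c1 was at 80.0, 68.7, 72.2 and 75.3 CPM at 6m, from 38 to 65 reads per library. At 24m it was at 56.4, 46.8, 62.7 and 38.4 CPM, from 37 to 50 reads. The ages did not overlap, and the 24m libraries were spread over a wider range. The means of 74.1 ± 4.80 and 51.1 ± 10.7 CPM (SD, n = 4) gave a log2FC of -0.578 (SE 0.167, 95% interval -0.92 to -0.23; edgeR, adjusted p = 0.0150), just short of the fold threshold of 0.58. Without the aged replicate 4, which had the lowest value, the log2FC was -0.42 and the adjusted p was 0.0730. DESeq2 gave adjusted p of 0.0567 on raw counts and 0.0584 on quantile-normalized counts.

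Ly6c2 had 11, 6, 9 and 7 reads at 6m and 3, 3, 5 and 3 at 24m, and was changed, with a log2FC of -1.51 (95% interval -2.37 to -0.64; edgeR, adjusted p = 0.0127). That call was lost with DESeq2 on raw counts (adjusted p = 0.0682) and without the aged replicate 4 (edgeR, adjusted p = 0.0562). Both genes of the pair had negative log2FC values in every fit that tested them. With the reads of Ly6c1 and Ly6c2 counted together, a setting chosen after the data were seen, the pair had 79.6 to 93.6 CPM at 6m and 40.6 to 69.1 CPM at 24m. Its log2FC was -0.67 (SE 0.166, 95% interval -1.01 to -0.33; edgeR, adjusted p = 0.00542), past both thresholds. This count does not depend on how reads were divided between Ly6c1 and Ly6c2. Whether reads placed on both genes were left out or counted for each is not given, and the joint count still depends on that.

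**Figure D1:**
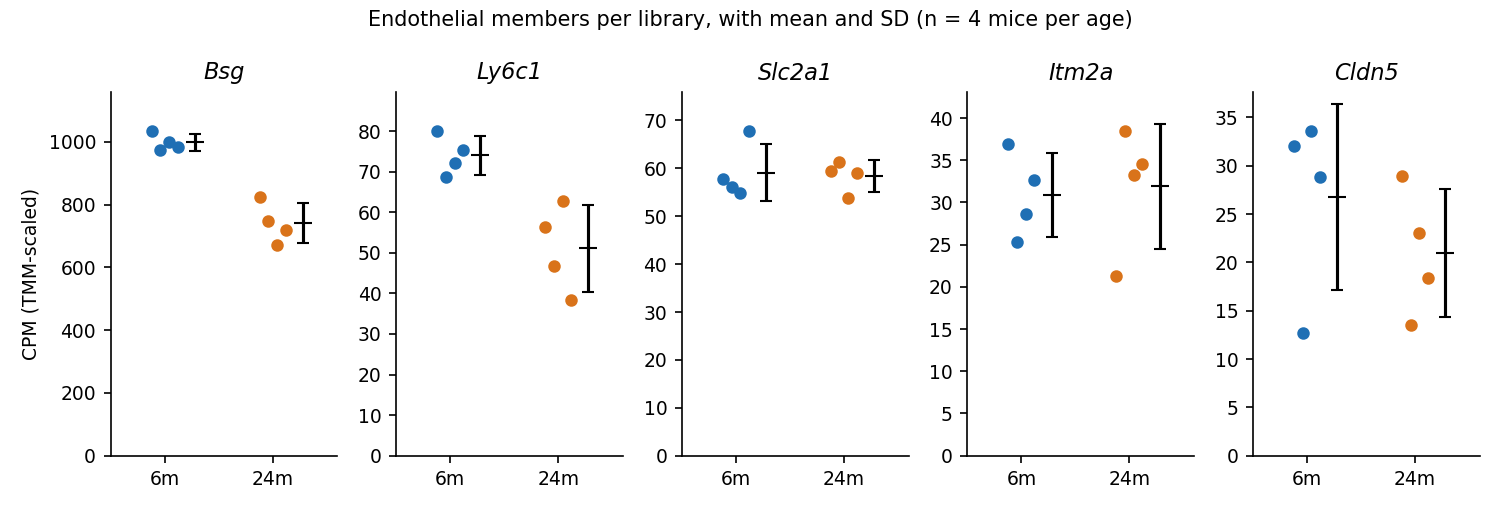
CPM (vertical axes, linear from 0, with TMM-scaled library sizes) of the 5 tested members in each library of 6m mice (blue) and 24m mice (orange); black marks are the mean and SD of 4 libraries. The libraries of Bsg and Ly6c1 separate by age, whereas those of Slc2a1, Itm2a and Cldn5 overlap.

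None of the 5 tested members was changed by both thresholds (edgeR; background 14.5%). Of the 5, 2 (Bsg and Ly6c1) were lower at an adjusted p of at most 0.05 alone, where 9.42% of all tested genes were lower by the same rule. At an unadjusted p under 0.05 the count was also 2, but the share of all tested genes by that rule is not reported here, so this count has no background. The same 2 of 5 had libraries that did not overlap between ages, against 21.1% of all tested genes. With so few genes, these shares describe the members and were not tested.

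Slc2a1, the glucose transporter, was at 57.9, 56.1, 54.8 and 67.8 CPM at 6m and at 59.5, 61.3, 53.8 and 59.1 CPM at 24m. The aged libraries lay within the range of the young ones but for the lowest, which was slightly below it. The log2FC was -0.02 (SE 0.154, edgeR, adjusted p = 0.950), with a 95% interval of -0.34 to 0.30. The interval leaves room for a moderate difference in either direction.

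Itm2a was at 36.9, 25.3, 28.6 and 32.6 CPM at 6m and at 21.3, 38.5, 33.3 and 34.5 CPM at 24m. Its lowest and its highest library were both aged. The log2FC of 0.06 (SE 0.215, 95% interval -0.38 to 0.50; edgeR, adjusted p = 0.871) was smaller than the spread between mice.

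Cldn5 was at 32.0, 12.7, 33.6 and 28.9 CPM at 6m and at 29.0, 13.5, 23.0 and 18.4 CPM at 24m. The lowest value at 6m, in the young adult replicate 2, rested on 7 reads in the smallest library. The log2FC of -0.45 was of a size like that of Bsg, but its SE of 0.277 was larger and its 95% interval ran from -1.02 to 0.11 (edgeR, adjusted p = 0.256). Left out one at a time, the libraries gave log2FC values from -0.63 without the young adult replicate 2 (adjusted p = 0.0989) to -0.29 without the aged replicate 2 (adjusted p = 0.557), and Cldn5 passed the threshold in none of these 8 fits (edgeR).

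The 4 members with few reads are given by their counts. Pecam1 had 3, 2, 5 and 1 reads at 6m and 4, 6, 3 and 4 at 24m. Its means were 3.70 CPM at 6m and 4.81 CPM at 24m, apart by less than the spread between mice (exact permutation test, two-sided, p = 0.457). Slco1a4 had 2, 3, 6 and 0 reads at 6m and 0, 6, 3 and 5 at 24m, with means of 3.84 and 3.48 CPM (exact permutation test, p = 0.943). With the minimum lowered to a total count over 5, edgeR gave Pecam1 a log2FC of 0.33 with a 95% interval of -0.848 to 1.499, and Slco1a4 one of 0.03 with an interval of -1.30 to 1.36. Intervals this wide leave room for large differences in either direction.

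Both receptors were near the limit of detection. Flt1 was seen in 1 of 4 libraries at 6m, with 1 read, and in 3 of 4 at 24m, with 1, 1 and 3 reads (exact permutation test, p = 0.257). Tek had 1, 2, 0 and 0 reads at 6m and 1, 1, 1 and 0 at 24m (exact permutation test, p = 0.914). All of these counts were at or under 3 reads, and no fold is given for either gene. The smallest p that 4 against 4 libraries can give is 0.0286, and differences in these genes were not detectable at this depth. For any member, a difference in reads in either direction can come from the number of endothelial cells or from the RNA per cell, among other sources. These cannot be told apart in RNA of whole tissue.

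**Figure D2:**
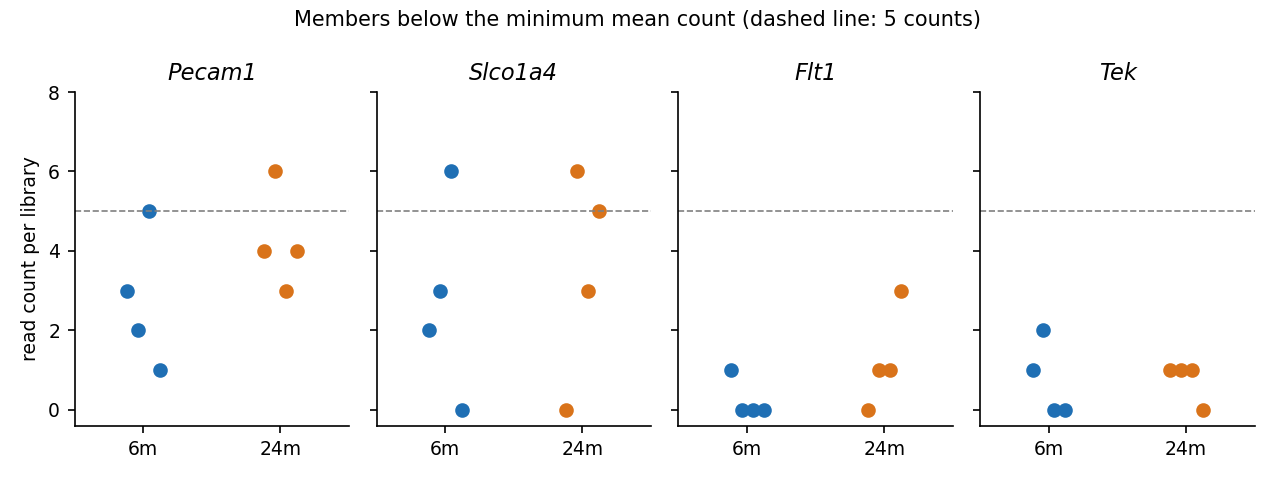
Raw read counts per library (vertical axis) of the 4 members under the minimum mean count of 5 (dashed line), at 6m (blue) and 24m (orange). No library held over 6 reads of any of them, and the ages overlap in every panel.

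Levels were compared between members per kilobase of the canonical transcript. Bsg led with 552 CPM per kilobase at 6m and 410 at 24m, and Ly6c1 followed with 68.1 and 46.9. Cldn5 (18.9 and 14.8), Itm2a (17.6 and 18.2) and Slc2a1 (13.3 and 13.1) came next, and their libraries overlapped with one another at both ages. Pecam1 and Slco1a4 were each between 0.878 and 1.31, and Tek and Flt1 were lowest. Since a nanopore read usually covers a single molecule from its 3′ end, division by length may overcorrect for long transcripts. The order and the overlaps describe these libraries on this scale. In CPM without division by length, Slc2a1 (53.8 to 67.8) was above Itm2a (21.3 to 38.5) and Cldn5 (12.7 to 33.6) in all libraries. At 24m its mean of 58.4 CPM was also above the 51.1 CPM of Ly6c1.

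Of the raw reads on the 9 genes together, 82.7% to 84.7% came from Bsg at 6m and 78.6% to 82.6% at 24m. Any sum over the members is therefore mainly a value of Bsg. The sum over all 9 was 1148 to 1251 CPM at 6m and 856 to 1000 CPM at 24m. Without Bsg, the 8 remaining members summed to 215, 175, 203 and 206 CPM at 6m and to 174, 175, 183 and 160 CPM at 24m, and the ages overlapped.

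Ratios of members within a library do not depend on library size or its scaling. The log2 ratio of Slc2a1 to Bsg was -4.07 ± 0.150 at 6m and -3.65 ± 0.0872 at 24m (SD, n = 4), a difference of 0.42 with no overlap between the ages. The exact permutation test gave the smallest p it can, 0.0286, and 0.286 after adjustment over the 10 pairs of tested members. The ratio of Slc2a1 to Ly6c1 differed by 0.54 (exact permutation p = 0.0571, adjusted p = 0.286). No pair passed an adjusted p of 0.05, and 1 of 10 passed an unadjusted 0.05. Where 1 pair alone reaches the smallest p, adjustment gives 0.286, so a single pair could not pass and the outcome does not decide the question. The ratio of Ly6c1 to Bsg, the pair that was lower, differed by -0.12 between ages (exact permutation p = 0.514).

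**Figure D3:**
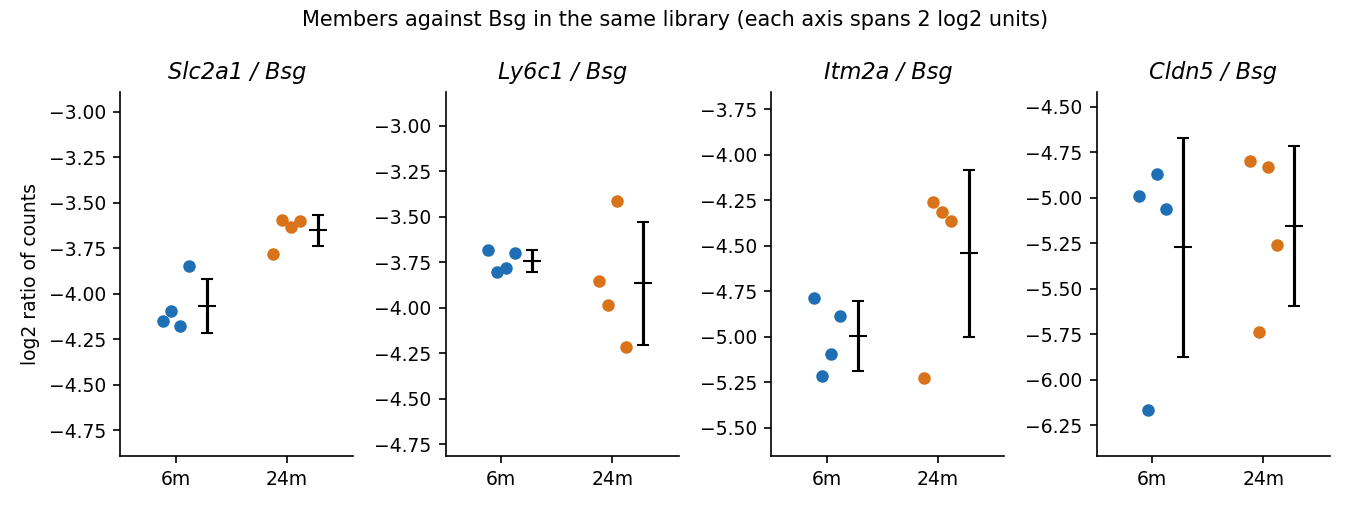
Log2 ratio of the read counts of 4 members to those of Bsg in the same library (0.5 added to each count), at 6m (blue) and 24m (orange), with mean and SD of 4 libraries. Slc2a1 is the member whose ratio to Bsg separates the ages; each vertical axis spans the same range but starts at its own value.

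Across the 8 libraries, with each gene centred on its mean log2 CPM, Ly6c1 and Bsg were the 2 members most alike (root mean square difference 0.209), and Cldn5 and Itm2a the least alike (0.555). Among 5160 genes with a mean count of at least 20, those nearest to Bsg were Psmb6 (0.0400), Ndufa11 (0.0472) and Abhd17a (0.0503). Those nearest to Ly6c1 were Ints1 (0.0770), Map2k5 (0.108) and Ruvbl1 (0.111). Slc2a1 was most like Fbxo31 (0.0586), Neu1 (0.0621) and Eif1b (0.0667). Itm2a was most like Napg (0.0854), Chst2 (0.121) and Mybph (0.125). Cldn5 was under the minimum.

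The tested members differ in transcript length, and the median log2FC of all tested genes rose with length up to 6000 bases. It was -0.20 up to 1000 bases, where 21.8% were lower at an adjusted p of at most 0.05. It was 0.02 at 2000 to 3000 bases and 0.10 at 3000 to 4000 bases. Only the band over 6000 bases broke this rise. The 802 tested genes of 1000 to 1500 bases, the band of Ly6c1 and Cldn5, had a median log2FC of -0.15, and 14.6% of them were lower at an adjusted p of at most 0.05. In the band of 1500 to 2000 bases, which holds Bsg and Itm2a, the median was -0.06 and 8.60% were lower. Among the 2013 genes of 4000 to 6000 bases, the band of Slc2a1, the median was 0.13 and 6.31% were lower, whereas the 1208 genes over 6000 bases had a median of -0.03 and 12.7% were lower. The log2FC of Bsg and of Ly6c1 were further below 0 than the medians of their bands, and the part of length in these values was not tested.

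To show what lies before the genes that were lower, the 200 bases upstream of the canonical start of Bsg and Ly6c1 are printed from GRCm39, with GGAA or its complement TTCC, the core of ETS factor sites, in capitals. The window of Bsg is chr10:79539943-79540142 on the plus strand, and that of Ly6c1 is chr15:74920664-74920863 on the minus strand.
Bsg: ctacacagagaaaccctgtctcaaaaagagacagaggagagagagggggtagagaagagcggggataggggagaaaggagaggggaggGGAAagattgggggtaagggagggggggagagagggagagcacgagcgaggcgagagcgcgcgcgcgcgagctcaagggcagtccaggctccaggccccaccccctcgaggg
Ly6c1: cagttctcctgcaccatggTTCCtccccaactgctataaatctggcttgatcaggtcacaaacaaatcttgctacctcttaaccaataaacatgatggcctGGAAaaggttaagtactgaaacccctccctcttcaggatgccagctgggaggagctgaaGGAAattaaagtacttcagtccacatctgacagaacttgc
GGAA was found on either strand once before Bsg, 3 times before Ly6c1, 2 times before Itm2a and not before Cldn5 or Slc2a1, and 89.1% of the 9349 windows of tested genes held it. CG dinucleotides numbered 11 before Bsg and Cldn5, 9 before Slc2a1, 5 before Itm2a and 0 before Ly6c1, against a median of 11. TATAAA was found before Ly6c1, as in 5.20% of windows, and in none of the other 4. GGGCGG, the GC box, was present once before each of Cldn5, Slc2a1 and Itm2a and not before Bsg or Ly6c1 (46.5% of windows). CCAAT was present 2 times before Cldn5 and once before Ly6c1 and Bsg (31.9%), and CACGTG before no tested member (6.90%). With windows of 5 genes, these differences are a description of the sequences, and a match of letters is not a binding site.

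Among 34 other genes of endothelial identity, 19 were tested, and the changed ones were 2 higher and 3 lower genes. The median log2FC of the 19 was -0.27, against -0.0034 over all tested genes, and 7 of 19 were above 0. The lower genes were Egfl7, a secreted factor of endothelial cells (mean 60.8 CPM at 6m and 41.8 at 24m, log2FC -0.58, edgeR adjusted p = 0.0258), Pglyrp1, a peptidoglycan recognition protein (log2FC -0.83, adjusted p = 0.0425), and Esam, an adhesion molecule of endothelial junctions (log2FC -1.03, adjusted p = 0.0495). These calls lay close to the threshold and were lost in 11 of 12 alternative fits for Egfl7, 6 of 12 for Pglyrp1 and 9 of 10 for Esam.

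The genes that rose were S1pr1, a sphingosine-1-phosphate receptor, and Epas1, which encodes the hypoxia-inducible factor HIF-2α. S1pr1 had 14.5 to 27.4 CPM at 6m and 38.1 to 52.2 CPM at 24m (log2FC 1.23, edgeR adjusted p = 0.000237), called in all 12 alternative fits. Epas1 had 1 to 4 reads at 6m and 2 to 14 at 24m (log2FC 1.74, edgeR adjusted p = 0.0177), and its call was lost in 3 of 10. Both are made by astrocytes as well as by endothelial cells. Some of the 34 identity genes had few reads or none. Cdh5 (VE-cadherin) had 0 to 5 reads per library and Kdr (VEGFR2) had 0 to 2, while Erg and Cd93 had none. Of the 34 genes, 19 passed the minimum count, as did 9375 of all 22430 genes. Summed over the 34 genes, the level was 718 to 874 CPM at 6m and 714 to 787 CPM at 24m.

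**Figure D4:**
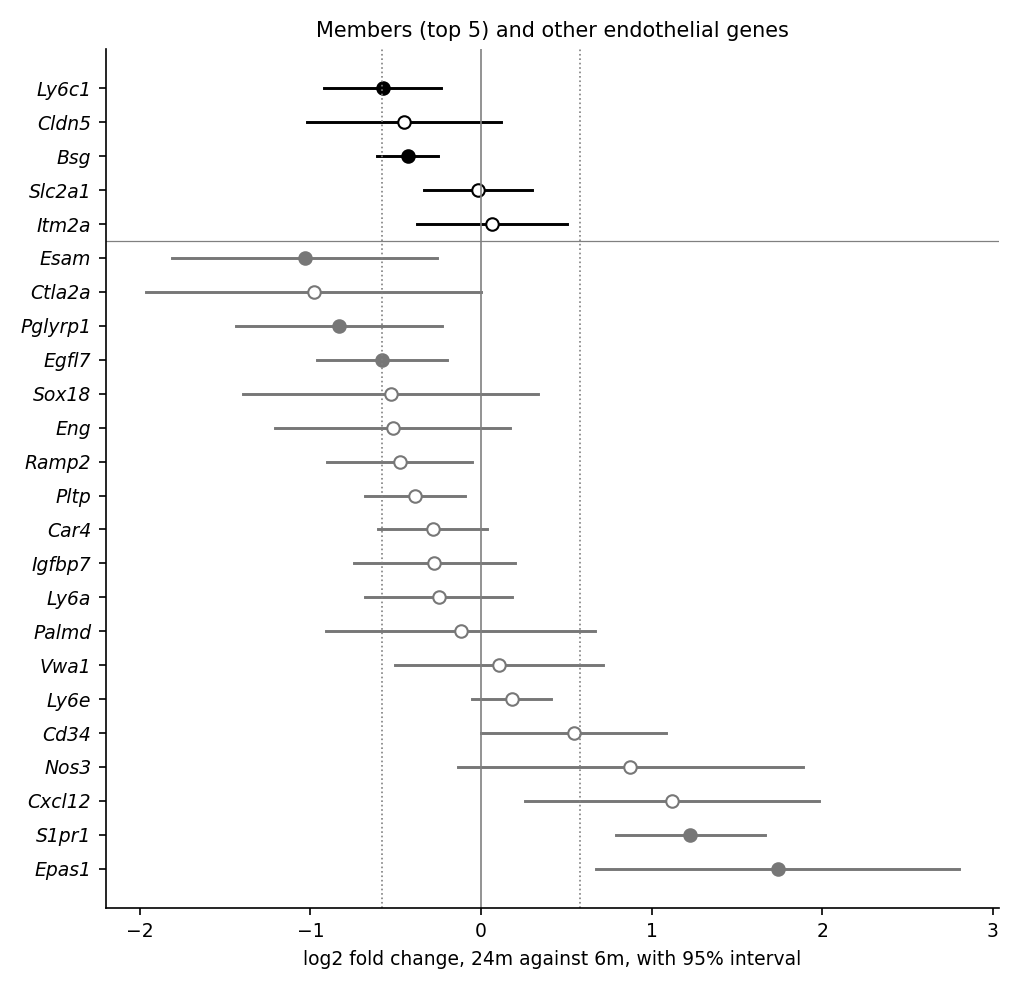
Log2FC at 24m against 6m (horizontal axis, dots) with 95% intervals (lines) for the 5 tested members (black, top) and 19 other endothelial genes (grey). Filled dots have an adjusted p of at most 0.05 and dotted lines mark an absolute log2FC of 0.58; the genes range from Esam at -1.03 to Epas1 at 1.74.

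Genes that work beside the members were read by list, beside the 14.5% of all tested genes that were changed. With so few tested genes in each list, the counts describe the lists and were not tested. Of 16 genes of tight and adherens junctions, 10 were tested, with a median log2FC of 0.20. The 1 changed gene was Esam, already counted above among the genes of endothelial identity. Of 23 other transport genes of the barrier, 11 were tested and 1 was changed. This was Slc7a5, the carrier of large neutral amino acids, which rose from 5.42 to 16.2 CPM at 6m to 23.8 to 34.5 CPM at 24m (log2FC 1.23, edgeR adjusted p = 0.00422) and was called in all 11 alternative fits. The median of the 11 was 0.09.

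The list of the VEGF and angiopoietin pathways, where Flt1 and Tek act, also held genes of Notch and ephrin signalling. Of its 19 genes, 3 were tested and 0 changed (edgeR, median log2FC 0.10). The ligand Vegfb (log2FC -0.24, adjusted p = 0.216) and Hey1, a transcription factor downstream of Notch (log2FC 0.46, adjusted p = 0.0765), had the most reads. Of 19 genes of Wnt signalling and barrier induction, 6 were tested and 0 changed (median 0.46). Ctnnb1, which encodes β-catenin, had a log2FC of 0.49 and an adjusted p of 0.0350, and Nkd1, an antagonist of the pathway, had 0.15 and 0.742. Among 15 genes of endothelial activation and coagulation, 6 were tested and F3, tissue factor, was changed (log2FC 0.76, adjusted p = 0.0491, lost in 5 of 12 alternative fits; edgeR). F3 is strongly expressed by astrocytes. The median of the 6 was 0.20.

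Relatives and partners of the members went both ways. Of 22 such genes, 14 were tested, 3 were changed and higher and 1, Ly6c2, was changed and lower, with a median log2FC of 0.26. Itm2c, a paralog of Itm2a, rose from 575 to 614 CPM at 6m to 845 to 1133 CPM at 24m (log2FC 0.70, edgeR adjusted p = 6.76e-06). Slc2a3, the neuronal glucose transporter GLUT3, rose from 11.2 to 18.1 CPM to 29.9 to 57.2 CPM (log2FC 1.57, adjusted p = 0.000144). Nptn, which encodes neuroplastin, a relative of basigin, had a log2FC of 0.59 (adjusted p = 0.00148). The calls of Itm2c and Slc2a3 were kept in all 12 alternative fits and without any single library, whereas that of Nptn was lost in 1 of 12 and in 4 of 8 fits without 1 library. Their relatives among the members, Itm2a, Slc2a1 and Bsg, had log2FC values of 0.06, -0.02 and -0.43.

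Other cells of the vessel wall and of blood were read in the same libraries. Of 18 pericyte and smooth muscle markers, 7 were tested and 0 changed (edgeR; median log2FC -0.40), with sums of 204 to 316 CPM at 6m and 180 to 225 CPM at 24m. Vtn (log2FC -0.40, adjusted p = 0.0636) and Myl9 (-0.56, adjusted p = 0.162) had the most reads. Of 11 perivascular fibroblast markers, 5 were tested and 0 changed (median 0.01), Fbln1 (0.01) and Slc6a13 (0.16) among them. The 8 perivascular macrophage markers were under the minimum count.

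Red cell genes were lower at 24m. All 5 tested of 7 erythroid genes were changed and lower (median log2FC -0.87), and they summed to 6090 to 10032 CPM at 6m and 3350 to 6283 CPM at 24m. The leading globins were Hbb-bt (log2FC -0.90, edgeR adjusted p = 0.000122), Hbb-bs (-0.87), Hba-a1 (-0.75) and Hba-a2 (-0.74), whose near-identical copies make the division of reads among them uncertain. After quantile normalization the calls of Hba-a1 and Hba-a2 were lost (log2FC of Hba-a1 up to -0.49, adjusted p up to 0.111), while those of Hbb-bt and Hbb-bs were kept. The tissue was washed briefly, and its isolation as described includes no perfusion. RNA of these red cell genes thus moved in the direction of Bsg and Ly6c1, and its part in these values was not tested. Of 12 platelet and leukocyte markers, 2 were tested. Lyz2, the lysozyme of myeloid cells, rose (log2FC 1.76, edgeR adjusted p = 1.06e-05), and the other tested marker had a log2FC of -0.51. Whether the reads of Lyz2 came from blood or from brain tissue was not tested.

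Markers of most other cell types of the hemisphere had medians above 0. Of 11 microglia markers 9 were tested and 2, Ctss and Tmem119, rose (median log2FC 0.44), of which Tmem119 lost its call in 2 of 12 alternative fits. Of 10 astrocyte markers 9 were tested, with Gfap (1.94), Slc1a3 (1.65) and Gja1 (1.41) among 4 that rose and Slc1a2 (-0.59) lower, the last lost in 7 of 12 alternative fits. Mbp rose (log2FC 0.72) among 9 tested of 10 oligodendrocyte markers (median 0.55). Slc17a7, Snap25 and Gad1 rose among 10 neuron markers (median 0.45), with calls lost in 1, 2 and 1 of 12 alternative fits. Of 10 choroid plexus markers 4 were tested and 0 changed (edgeR; median -0.42), with Ttr at -0.11 and Enpp2 at -0.46 (adjusted p = 0.00550). The sums were 2087 to 2641 CPM at 6m and 2885 to 3740 CPM at 24m for oligodendrocyte markers, and 2472 to 2732 and 2799 to 3328 CPM for neuron markers. Those of microglia markers were 802.5 to 869 and 1007 to 1254 CPM. The sums of astrocyte markers (2627 to 3110 and 2671 to 3385 CPM) and of choroid plexus markers (3096 to 4619 and 2396 to 4626 CPM) overlapped between ages. CPM are shares of a whole, so these sums and the values of the members are not independent, and the part of one in the other was not tested.

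Bsg and Ly6c1 were followed through every way of processing. The log2FC of Bsg was negative with an adjusted p of at most 0.05 in all 12 alternative fits and in all 8 fits without 1 library. Its size depended on normalization: -0.25 with limma-voom and -0.24 with DESeq2 after quantile normalization, against -0.43. Ly6c1 was negative in all of them too, and lost its adjusted p with DESeq2, on raw counts as well as after quantile normalization, and without the aged replicate 4. It passed both thresholds with limma-voom (log2FC -0.63) and without the young adult replicates 2 or 3 or the aged replicates 1 or 3.

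**Figure D5:**
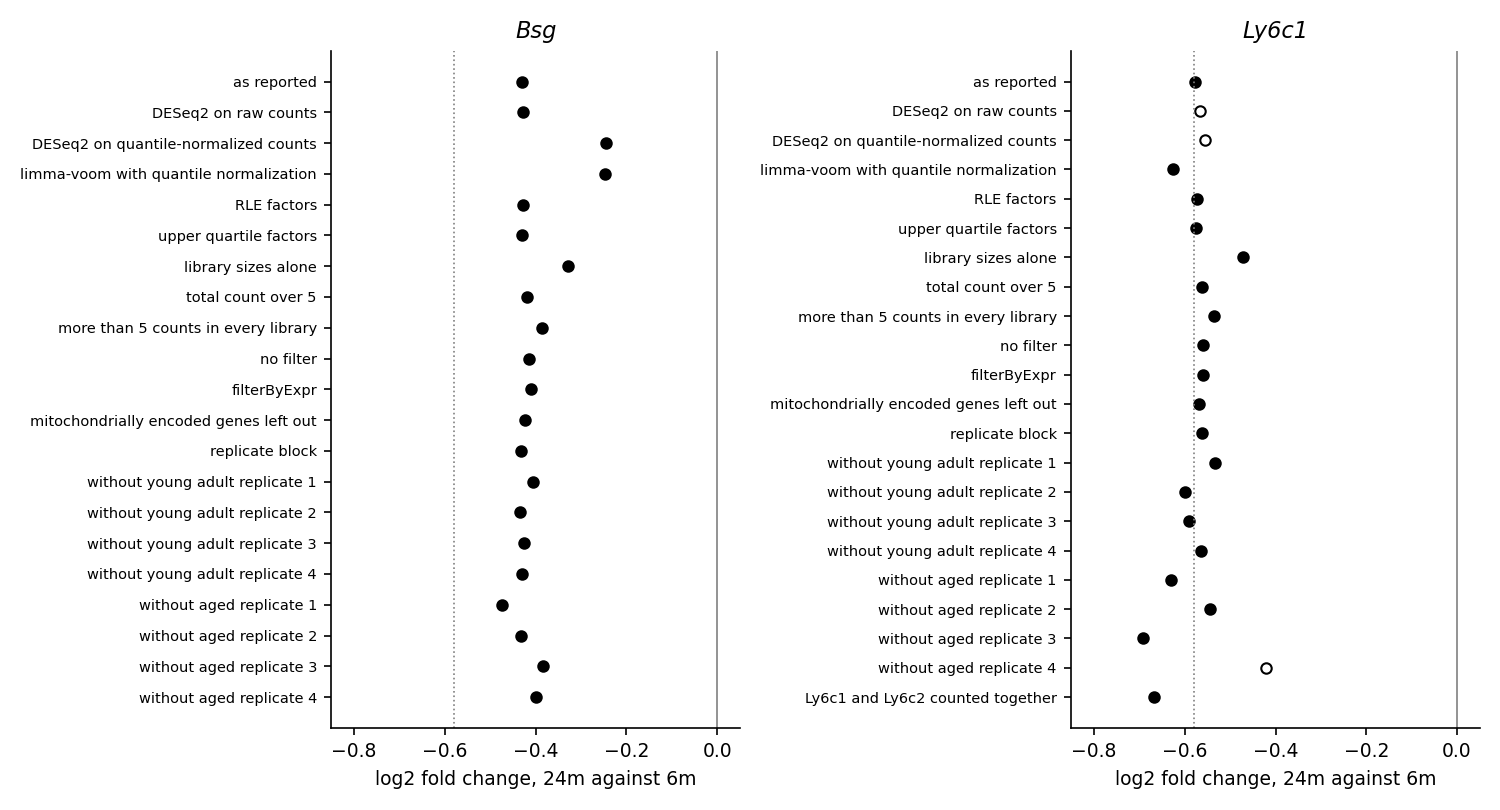
Log2FC of Bsg (left) and Ly6c1 (right) at 24m against 6m in the reported fit and under each alternative; filled dots have an adjusted p of at most 0.05, open dots do not, and the dotted line marks -0.58. Bsg ranges from -0.47 to -0.24 and Ly6c1 from -0.69 to -0.42.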

How the data were processed

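RNA of 8 mouse brain hemispheres (4 at 6m and 4 at 24m, grouped by sample title) was analysed. The table deposited by the authors holds unnormalized counts of reads on each gene, from ONT direct RNA sequencing on a MinION, mapping to GRCm39 with minimap2 2.24 and counting with featureCounts. Strand, overlap and multi-mapping settings are not given in the sources used here. The labels name another library kit than the methods, which were followed. The authors' later filter, quantile and row-wise median normalization are not part of these counts.

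Genes with a mean count over 5 (9375 of 22430, of which 22281 were matched to GENCODE vM39) were tested with edgeR 4.0.16 (quasi-likelihood test, TMM, age as the only term) in R 4.3.3. Standard errors come from the log2FC and the F statistic. Benjamini-Hochberg adjustment ran over all tested genes, and thresholds were an adjusted p of 0.05 and an absolute log2FC of 0.58. Members under the minimum, library totals and log2 ratios of members (0.5 added to each count) were tested by exact permutation over libraries, two-sided, with adjustment over 10 pairs for the ratios. Lists of marker genes (250 genes) are described by counts and medians, without a test. From each list up to 4 changed genes with the smallest p were named, or up to 2 with the highest mean count where none changed; Cdh5, Kdr, Erg and Cd93 were named outside this rule, after their values were seen, and a gene that the rule selects is not reported here. For tested members with a mean count of at least 20, the 3 genes most like them in pattern were named.

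Near copies were searched with BLAST+ 2.17.0. Alternatives used DESeq2 1.42.0, limma 3.58.1, other scalings and other filters, and tests were checked on simulated data. The members and lists were chosen with earlier results of these data known. Totals of 573152 to 1255424 reads limit precision for genes with few reads, and limits from 3 counts and intervals of shares cover counting error only.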

Additional observations from a re-analysis of the deposited data

Results flagged for a closer look

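Of 154 groups of 4 libraries examined, 4 held a library far from the other 3 by Dixon's criterion, where chance alone gives about 1 in 20, or 7.7. The young adult replicate 2 had a total of 573152 counts, against 818963 to 843706 in the other 6m libraries. Flt1 was at 1.23 CPM in the young adult replicate 1, a single read, and at 0 in the other 3. Snap25, a synaptic vesicle fusion protein of neurons, was at 261 CPM in the aged replicate 1 against 600 to 667 CPM in the other aged libraries. Chst2, one of the genes most like Itm2a in pattern, was at 71.6 CPM in the aged replicate 1 against 127 to 134 CPM.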

How the results depend on the processing

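Over all genes, 834 were changed with DESeq2 on raw counts (629 higher, 205 lower) and 824 with DESeq2 on quantile-normalized counts (553 and 271), against 1359 with edgeR; the cause was not tested. The count of changed members was 0 in the reported fit, 1 with limma-voom after quantile normalization (Ly6c1), 2 with an adjusted p alone (Bsg and Ly6c1), and 0 to 1 when single libraries were left out. None of the 10 ratios of members passed with 0.1 or 1 added, or without single libraries, where the exact permutation test cannot go below p = 0.0571. With all libraries, a single pair at the smallest p could not pass after adjustment either.

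Signs near 0 turned. Slc2a1 was at 0.0875 with library sizes alone, 0.0294 with more than 5 counts in every library, 0.000129 with no filter and 0.0052 with filterByExpr, and -0.0518 to 0.0662 without single libraries. Itm2a was at -0.0138 with DESeq2 on quantile-normalized counts and -0.00596 with limma-voom, and -0.0262 to 0.188 without single libraries. In the same order of these 2 settings, Fbln1 was at -0.0679 and -0.0875 and Ttr at 0.145 and 0.0689, and Slc6a13 was at -0.0265 with DESeq2 on quantile-normalized counts. Without single libraries, Fbln1 ranged from -0.102 to 0.112, Slc6a13 from -0.158 to 0.307 and Ttr from -0.269 to 0.0474. The difference in mean CPM (24m minus 6m) ranged over the same fits from -1.64 to 0.849 for Slco1a4 and -0.655 to 0.551 for Tek.

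The replicate numbers of the labels did not pair the samples: same-numbered libraries correlated at 0.0647, -0.0101, 0.0051 and -0.16. With a replicate block 1308 genes and 0 members were changed, and Fbln1 was at -0.00826. Of 340 counts of changed genes in the 17 lists under alternatives, 68 moved by over 1.5 times. Of the 12 genes most like a member, 9 stayed with a minimum mean count of 50.

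Depth limits Pecam1, Slco1a4, Flt1 and Tek, whose few reads leave wide room for change in either direction.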
